A study of Mus musculus with 40 samples.

Results

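The genes of the nuclear pore and of nuclear transport were followed in mouse oocytes through 5 stages of follicle growth. Members were chosen by gene symbol alone: nucleoporins whose names carry a number, importins alpha and beta, exportins, transportins, Ran, the Ran-binding proteins, Rangap1, Rcc1 and Nutf2. The exportin gene Xpo5 was left out by the rule. The rule found 134 probe sets of 51 genes, among 45037 probe sets and 18193 genes with a probe set naming 1 gene. Nutf2 had no such probe set. Of the 51 genes, 50 had a probe set that passed the filter on low signals (at least 4 of 20 arrays at a scaled signal of 100 or more). The exception was Nup210l, a relative of Nup210, whose stage means lay between 61.7 and 91.5. Each gene was read from 1 probe set, from array type 430A where it had one there.

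The nuclear pore is a ring of nucleoporins set in the nuclear envelope, with a scaffold that holds its shape and a core of flexible phenylalanine-glycine (FG) repeat proteins that forms the transport barrier. Importins bind cargo in the cytoplasm and release it in the nucleus on meeting Ran in its GTP form, while exportins need Ran-GTP to hold cargo. Rcc1 on chromatin loads Ran with GTP and Rangap1 outside the nucleus triggers its hydrolysis, which gives transport its direction. A growing oocyte stays arrested in meiotic prophase with a large intact nucleus, the germinal vesicle, and stores RNA and protein for the meiotic divisions and the early embryo.

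Oocytes were taken from SJLB6 female mice. Primordial follicle oocytes came from animals aged 2 days in pools of 400, primary from 6 days in pools of 90, secondary from 12 days in pools of 60, small antral from 17 days in pools of 30 and large antral from 24 days in pools of 20. Each stage had 4 biological replicates on each of 2 Affymetrix array types (430A, 430B), whose probe sets differ. Age and pool size changed with stage, so effects of the 3 cannot be told apart. The labels do not say which animals gave each pool, so p-values measure the spread between these samples.

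The comparison with primordial oocytes has a limit. The deposited values of primordial replicates 2 to 4 had the form of a mean with replicate 1. This narrows their spread, draws the primordial mean towards replicate 1 and makes the columns dependent on one another. Adjusted p-values from the deposited values of this comparison therefore do not rest on 4 independent primordial samples. Values for replicates 2 to 4 were also unmixed (the deposited value times 2, minus replicate 1). The unmixed result is given where it changes a call and for the genes with the largest early changes. For 3 of the 4 small antral samples on 430B the protocol text names the age and pool size of the secondary stage. Without these 3 arrays the counts of members called in both comparisons that use them stayed at 13 and 7. All of those members were read on 430A, where these arrays have no part, so none of the calls could be lost. Only members read on 430B, such as Kpna7 and Nup214, could change. Summed signals of 8 oocyte markers were 53408.7 to 67876.3 per replicate in primordial, 102419.6 to 106549.3 in primary and 104943.9 to 119011.7 in secondary samples. They were 93107.8 to 106816.2 in small antral and 72805.9 to 81715.3 in large antral samples, and all 8 had a mean above 100 at every stage. In primary relative to primordial oocytes 5 of these 8 rose and 1 fell. In large antral relative to primary oocytes 2 rose and 5 fell. Markers of other cell types also moved between the same stages as the members. For 11 granulosa cell markers the summed signal was 3283.7 to 4386.1 in primary against 2632.9 to 2711.7 in primordial samples, which do not overlap, and 3301.8 to 4155.6 in large antral samples. In primary relative to primordial oocytes, of 8 tested 2 rose, Nr5a2 (log2 1.77) and Inhbb (1.18), and 1 fell, Fst (-0.95). Foxl2, the brightest, was not called there, at a mean of 2111.0 in primary against 1580.0 in primordial oocytes. Of the 11 markers 4 to 6 had a mean under 100 at each stage, Amh and Amhr2 at all of them, while Foxl2 means were between 1580.0 and 2111.0. In large antral relative to primary oocytes 3 of 8 granulosa markers tested rose, Inha (mean 568.1 in large antral against 222.7 in primary oocytes), Hsd17b1 (111.4 against 13.4) and Fst (99.7 against 39.8), and 0 fell by limma's adjusted p. For 9 markers of theca and stroma the sum was 857.8 to 1178.3 in primary against 1351.2 to 1956.6 in primordial samples, and 867.1 to 1188.7 in large antral samples. For 5 markers of blood and endothelium it was 577.8 to 779.0 in large antral against 354.1 to 404.9 in primary samples, and both markers tested, Pecam1 and Kdr, rose. The 6 markers of the ovarian surface epithelium summed to between 1037.0 and 1686.8 at the 3 later stages against 477.7 to 855.1 in primary samples. Of 5 tested, 2 rose in large antral relative to primary oocytes, Aldh1a2 (log2 3.29) and Upk3b (1.38), and 1 fell, Krt8 (-0.94). Aldh1a2 alone had a mean of 976.5 in large antral oocytes. The part of these other cell types in the changes below was not tested. In pooled oocytes, a change in RNA per oocyte and a change in the share of other cells cannot be told apart.

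Signals below are array intensities after each array was brought to a trimmed mean of 500. Log2 changes were taken after adding 32, so changes of dim probe sets are understated. A gene is described as having risen or fallen only where limma's adjusted p was under 0.05. A signal depends on the probe set, so levels of different genes were not compared, and statements on a gene are about its 1 chosen probe set unless others are mentioned.

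The transition from primordial to primary follicles moved most of these genes, in both directions. Of 50 members tested, 20 rose and 14 fell in primary oocytes, beside 25.9% rises and 23.7% falls among all genes tested. The members' median log2 change was 0.11, against -0.05 over all genes. With unmixed primordial values 20 rose and 13 fell, beside 23.9% and 18.2% of all genes. The calls shared a direction both ways for 29 members, 17 of them rises and 12 falls. Ipo4, Nup155, Nup54, Tnpo3 and Xpo1 were called from the deposited values alone, and Nup188, Rcc1, Xpo4 and Xpo6 from the unmixed ones alone. Scaling arrays to the same median in place of the trimmed mean moved the median change of all probe sets to 0.07 from -0.08 on 430A and to 0.05 from -0.23 on 430B, and the members then numbered 22 rises and 12 falls.

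From primary to large antral follicles the members changed in smaller steps, with larger falls than rises. Between these stages 13 members rose and 17 fell in large antral oocytes, beside 17.8% rises and 17.9% falls among all genes. Of the falls, 9 were at least 2-fold, and none of the 13 rises was (background 6.27% and 5.5%). The median log2 change was -0.12 for the members and 0.01 for all genes. Secondary oocytes had 2 rises and 7 falls relative to primary oocytes (background 10.4% and 6.85%). Small antral oocytes had 1 rise and 12 falls relative to secondary oocytes (background 6.04% and 9.35%). Large antral oocytes had 5 rises and 2 falls relative to small antral oocytes (background 3.19% and 4.98%). In all, 24 members were called in at least 1 of these 3 steps, and Ran was the only one called in all 3, from its chosen probe set. Stage means were lower at every step for 10 of 50 members (20%, against 10.9% of all genes) and higher at every step for 7 (14%, against 11.1%). The count of 7 calls in the last step depended on single samples: it was 4 without large antral replicate 2, 4 without small antral replicate 1 and 11 without small antral replicate 3.

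**Figure D1:**
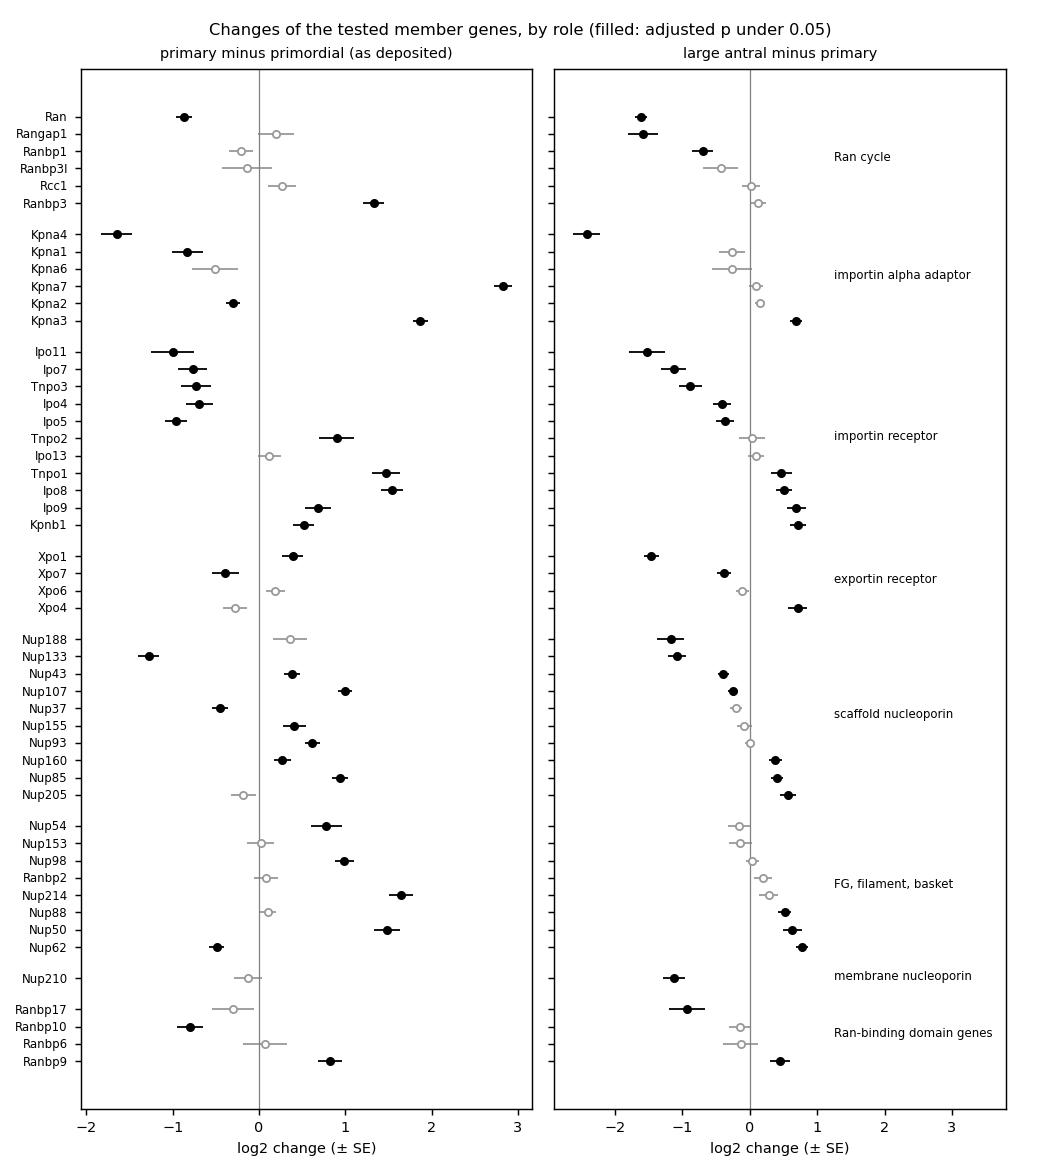
Log2 changes with standard errors for the 50 tested members, primary minus primordial oocytes as deposited (left) and large antral minus primary oocytes (right), grouped by role; filled points had an adjusted p under 0.05. Kpna7 at 2.83 on the left and Kpna4 at -2.42 on the right are the extreme points.

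Importins alpha are the adaptors that carry proteins with a classical nuclear localization signal, bound to importin beta. In this family the primordial to primary transition moved members in both directions. Kpna7 and Kpna3 rose, Kpna4, Kpna1 and Kpna2 fell, and Kpna6 did not pass the test. During later growth Kpna3 rose further and Kpna4 fell further, while the other 4 were not called between large antral and primary oocytes.

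Kpna7 encodes an importin alpha known from oocytes and early embryos. Its signals were 11999.6, 12060.7, 11281.2 and 12230.9 in primary oocytes, against 1583.2, 1848.1, 1588.6 and 1593.7 in primordial oocytes. The groups were far apart, and the fold was 7.09 (log2 change 2.83 ± 0.10 SE, adjusted p = 8.1e-17). From unmixed values the log2 change was 2.76 ± 0.12. At later stages the mean was 14677.9 ± 1965.8 in secondary, 13914.9 ± 1478.6 in small antral and 12719.7 ± 910.0 in large antral oocytes (SD, n = 4 each), and none of the 3 steps was called. Kpna7 was read on 430B, where 3 small antral arrays are in doubt. Without them its log2 change was -0.008 from secondary to small antral and -0.191 from small antral to large antral oocytes, and neither was called.

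Kpna3 signals were 1931.4, 1719.2, 1610.8 and 1694.7 in primary oocytes, against 450.6, 413.4, 465.6 and 473.7 in primordial oocytes. That is a log2 rise of 1.87 ± 0.09 (adjusted p = 3.1e-14), or 1.84 unmixed, with no overlap. Of the 3 Kpna3 probe sets tested, only this 1 rose in the first transition, and 0 fell. Large antral samples reached 2633.6, 2898.5, 2885.9 and 2889.8, above every primary sample (log2 0.69 ± 0.09, adjusted p = 2.4e-06). Most of that second rise lay in the last step, at 0.40 ± 0.09 over small antral oocytes (adjusted p = 0.0063). All 3 probe sets rose in large antral relative to primary oocytes.

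Kpna4, the adaptor most closely related to Kpna3, ran the other way. Its signals were 225.4, 288.9, 172.9 and 236.5 in primary oocytes, against 647.0, 866.9, 765.2 and 875.4 in primordial oocytes (log2 -1.65 ± 0.18, adjusted p = 2.7e-08, and -1.89 unmixed). In secondary oocytes they were 137.7, 123.4, 100.5 and 180.6, in small antral oocytes 34.7, 29.4, 28.4 and 37.7, and in large antral oocytes 25.1, 8.6, 18.5 and 14.9. Large antral and primary samples did not overlap, and the log2 change between them was -2.42 ± 0.20 (adjusted p = 8.2e-09). The step from primary to secondary, at -0.65, lost its call when any of 5 samples was left out, with log2 changes between -0.658 and -0.548. A second Kpna4 probe set, dim after the primordial stage, had means of 317.6, 46.4, 91.4, 78.9 and 85.0 over the 5 stages in order. It fell with the first in primary oocytes (log2 -2.20 ± 0.21) but rose between primary and large antral oocytes (0.61 ± 0.23, adjusted p = 0.04). The later fall therefore rests on 1 of the 2 probe sets, while the early fall was seen in both.

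Kpna2, an adaptor of dividing cells and oocytes, held its level more closely. Stage means were 12051.5 ± 948.0, 9781.2 ± 814.2, 10084.6 ± 442.3, 10723.5 ± 487.4 and 10825.8 ± 363.4 from primordial to large antral (SD, n = 4 each). The fall in primary oocytes, at log2 -0.30 ± 0.08 (adjusted p = 0.0026), was within the range that scaling moves: it was -0.145 with arrays scaled to the same median and 0.017 after quantile normalization, neither called. Large antral oocytes were 0.15 ± 0.07 above primary, which was called after quantile normalization (0.326) and without primary replicate 2 (0.206). Kpna1 fell by 0.83 on the log2 scale in primary oocytes (SE 0.18, adjusted p = 0.00034), with signals of 147.8 to 265.8 against 340.7 to 369.5 in primordial oocytes, and 1 of its other probe sets fell in large antral relative to primary oocytes. Kpna6 had secondary samples from 281.3 to 781.6 and small antral samples from 294.8 to 1016.8, and its steps were not called. A second Kpna6 probe set rose in large antral relative to small antral (0.64 ± 0.18, adjusted p = 0.029) and to primary oocytes (0.47 ± 0.18, adjusted p = 0.0483).

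**Figure D2:**
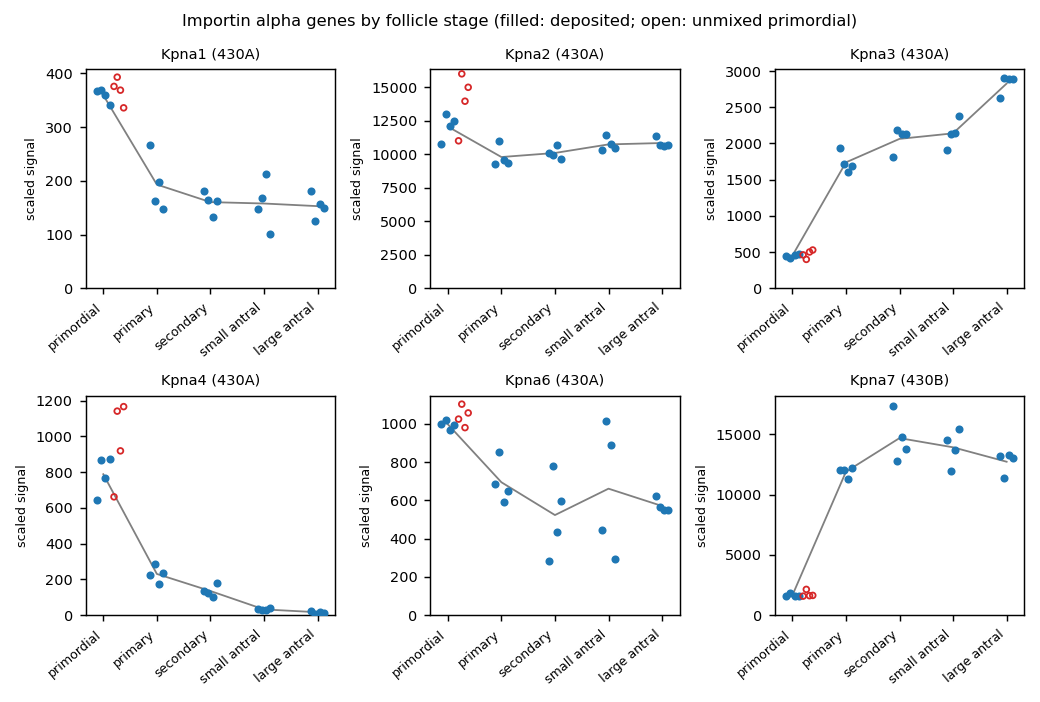
Scaled signal of 6 importin alpha genes in each sample by follicle stage, with lines through the stage means of the deposited values; open points are unmixed primordial values. Kpna7 and Kpna3 stand low in primordial oocytes, Kpna4 stands high there and is under 40 in both antral stages.

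Promoter sequences are shown for 3 importin alpha genes that differed in course: Kpna7, which rose, Kpna2, which changed little, and Kpna4, which fell. They are the 250 bases before the annotated start from RefSeq (GRCm38.p6), which held an entry for 41 of the members. Capitals mark CCAAT (either strand, ATTGG on the other) and the E-box pattern CANNTG, which reads the same on both strands.
Kpna7: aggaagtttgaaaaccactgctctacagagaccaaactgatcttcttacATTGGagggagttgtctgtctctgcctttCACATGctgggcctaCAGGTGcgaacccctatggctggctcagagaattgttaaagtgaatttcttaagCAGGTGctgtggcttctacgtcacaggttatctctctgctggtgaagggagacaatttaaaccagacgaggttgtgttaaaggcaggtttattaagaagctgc
Kpna2: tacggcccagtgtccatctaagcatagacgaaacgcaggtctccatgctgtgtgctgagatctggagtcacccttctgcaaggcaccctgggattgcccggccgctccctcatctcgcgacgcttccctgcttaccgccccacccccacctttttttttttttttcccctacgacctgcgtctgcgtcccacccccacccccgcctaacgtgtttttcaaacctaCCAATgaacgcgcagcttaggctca
Kpna4: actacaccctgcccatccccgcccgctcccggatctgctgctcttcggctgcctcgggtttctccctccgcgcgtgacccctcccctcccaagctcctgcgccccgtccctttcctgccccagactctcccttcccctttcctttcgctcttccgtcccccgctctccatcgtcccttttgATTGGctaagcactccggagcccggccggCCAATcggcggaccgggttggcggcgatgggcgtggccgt
The windows lie at chr5:145009637-145009886, chr11:106999526-106999775 and chr3:69127093-69127342 in that order, all for genes on the minus strand. The Kpna7 window held 3 CANNTG matches and 1 CCAAT match, that of Kpna2 held 1 CCAAT match and that of Kpna4 held 2. CANNTG was in 66% of all 27025 promoters and in 16 of the 41 member promoters, and CCAAT in 34.5% and in 18 of 41. The Kpna7 window had 3 CpG dinucleotides, the fewest among the members (range 3 to 49, median 21.0), while Kpna2 had 16 and Kpna4 had 24. The median over all promoters was 6.0. These matches describe the letters only.

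Among the genes of the Ran cycle, Ran and the GTPase-activating protein Rangap1 lost signal during growth in their chosen probe sets, and the exchange factor Rcc1 was not called between growing stages. Of 6 tested, 3 fell and none rose in large antral relative to primary oocytes, beside 17.8% rises and 17.9% falls among all genes, and the median log2 change was -0.57 against 0.01 over all genes.

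Ran, the GTPase itself, had signals of 14911.7, 17608.6, 17244.1 and 17323.3 in primordial oocytes. Primary samples lay between 8743.3 and 9619.9, secondary samples between 6124.2 and 6881.7, small antral samples between 3930.1 and 5197.9, and large antral samples between 2820.9 and 3286.5. No 2 stages overlapped. The steps were -0.87 ± 0.09, -0.46 ± 0.09, -0.58 ± 0.09 and -0.57 ± 0.09 on the log2 scale, each called, with adjusted p between 1.6e-08 and 0.00065, and the first was -1.05 unmixed. Between large antral and primary oocytes the fall was 3.05-fold (log2 -1.61 ± 0.09, adjusted p = 1.3e-11).

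Ran had 6 probe sets on 430A, and 5 of them have names ending in x_at, by which the manufacturer marks probes that may also match other transcripts. The probe set used above was one of these 5. The exception, whose name ends in _at alone, had signals of 2568.4, 2570.3, 2613.2 and 2371.4 in primary oocytes against 1181.9, 1068.8, 1157.2 and 969.8 in primordial oocytes, a rise (log2 1.19 ± 0.19, adjusted p = 1e-05). Its large antral samples were at 111.7, 128.2, 158.8 and 167.3, a fall of 3.9 on the log2 scale from primary oocytes (SE 0.21). The other 5 fell in primary oocytes, by between 0.87 and 1.09. From primary to large antral oocytes, 4 of the 6 probe sets fell, and the other two, at 0.15 and -0.12, were not called. The direction of the early change of Ran thus depended on the probe set, and the later fall was the call of 4 of 6. By step, 3 of the 6 fell in secondary and 3 in small antral oocytes. In the last step 1 fell, the chosen x_at probe set, while the other 5 were not called, at -0.41 to 0.44.

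**Figure D3:**
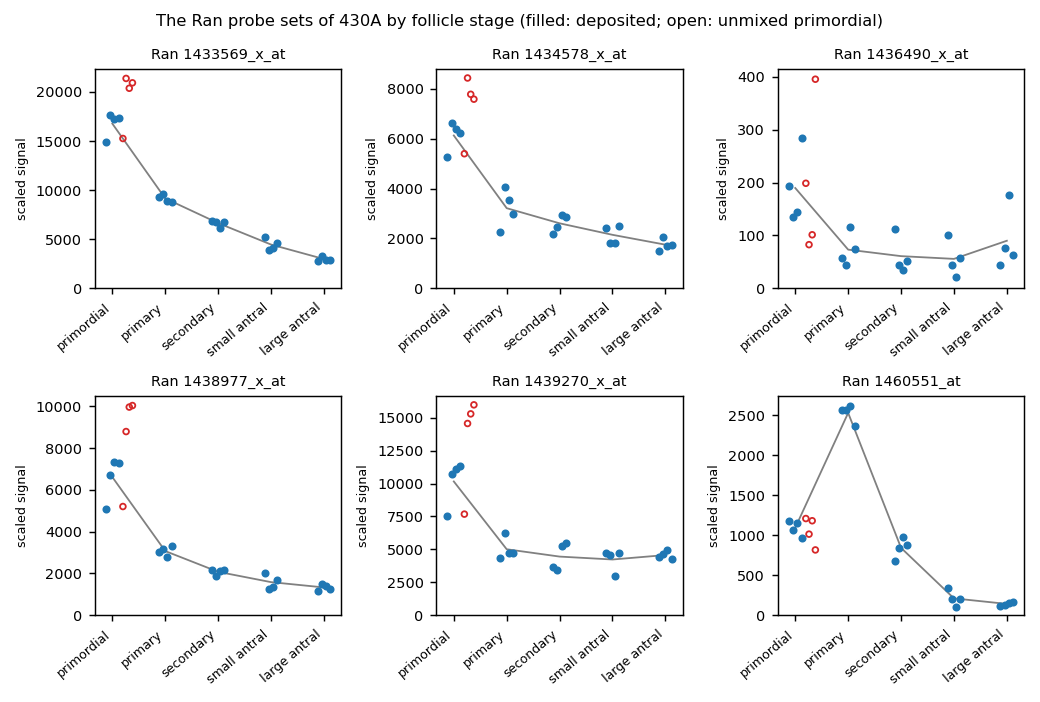
Scaled signal of the 6 Ran probe sets in each sample by follicle stage, with lines through the stage means of the deposited values; open points are unmixed primordial values. The probe set without the x_at ending peaks in primary oocytes, at a mean of 2530.8, whereas the others are highest in primordial oocytes.

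Rangap1 signals were 260.4, 312.0, 345.7 and 226.5 in secondary oocytes, against 724.2, 603.2, 518.1 and 605.6 in primary oocytes. The stages did not overlap (log2 -1.03 ± 0.22, adjusted p = 0.0028). Large antral samples were lower still, at 225.0, 161.9, 150.2 and 203.3, a log2 change of -1.58 ± 0.22 from primary oocytes (adjusted p = 9.3e-06). The other 2 Rangap1 probe sets, one on each array type, were not called in that comparison, with log2 changes of -0.39 ± 0.19 and 0.33 ± 0.21, and that on 430B rose in the last step (0.89 ± 0.21, adjusted p = 0.035).

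Ranbp1, which helps Rangap1 act on Ran released from carriers, was at 1304.9, 1167.5, 1166.9 and 1175.8 in large antral oocytes, against 1948.3, 1898.0, 2106.7 and 1941.8 in primary oocytes (log2 -0.70 ± 0.15, adjusted p = 0.00058). Its last step alone, -0.45 ± 0.15 relative to small antral oocytes (adjusted p = 0.0498), lost its call on leaving out any sample but small antral replicate 3. Rcc1 means were highest in large antral oocytes at 393.6 ± 59.8 and lowest in primordial oocytes at 322.3 ± 103.7 (SD, n = 4 each), and no step was called from deposited values. Its primordial signals were 471.5, 253.8, 313.9 and 250.1 as deposited and 482.4, 45.7, 166.1 and 40.2 when unmixed. The log2 change in primary oocytes was therefore 0.27 ± 0.16 as deposited and 1.45 ± 0.38 unmixed (adjusted p = 0.16 and 0.0034), a call that also appeared without primordial replicate 1 (0.456). Ranbp3, a cofactor of Xpo1, rose in primary oocytes (log2 1.33 ± 0.12, adjusted p = 1.8e-09) and was not called afterwards, and its relative Ranbp3l was not called in any comparison.

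**Figure D4:**
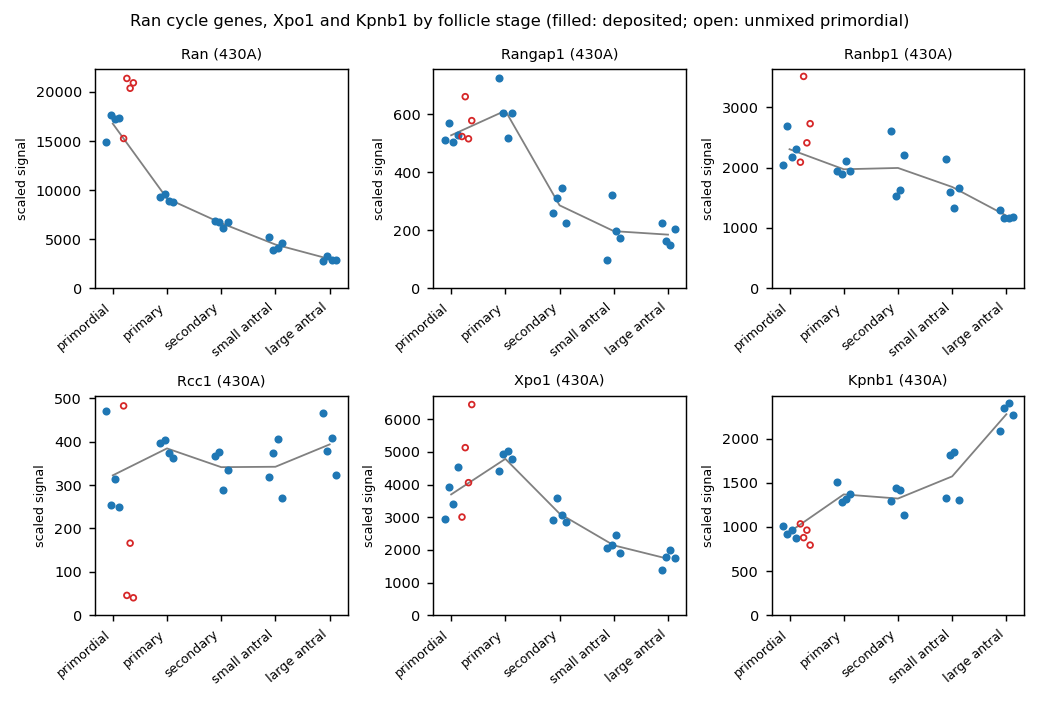
Scaled signal of 4 Ran cycle genes, the exportin Xpo1 and importin beta Kpnb1 in each sample by follicle stage, with lines through the stage means of the deposited values; open points are unmixed primordial values. Ran, Rangap1 and Xpo1 are lowest in antral oocytes, and Kpnb1 is highest in large antral oocytes, at 2088.8 to 2397.9.

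Receptors of the importin beta family carry cargo through the pore itself. The exportins were counted apart from the import receptors. Of the 11 tested members grouped as import receptors, 5 rose and 5 fell in primary relative to primordial oocytes, beside 25.9% and 23.7% of all genes. In large antral relative to primary oocytes 4 rose and 5 fell, beside 17.8% and 17.9%. Stage means were higher at every growth step for Ipo9 and lower at every one for Ipo11, and the means of the other 9 were higher at some steps and lower at others. Kpnb1, Ipo8, Ipo9 and Tnpo1 rose in both comparisons, and Ipo11, Ipo7, Tnpo3, Ipo4 and Ipo5 fell in both. The comparisons share the primary samples, so the pairs of values are not independent.

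Kpnb1 is importin beta 1, the partner of the importins alpha. Its signals were 2088.8, 2348.3, 2397.9 and 2265.9 in large antral oocytes, against 1502.4, 1281.9, 1316.8 and 1369.6 in primary oocytes (log2 0.72 ± 0.12, adjusted p = 4.1e-05). Every large antral sample was above every sample of the 4 earlier stages. The last step accounted for 0.54 ± 0.12 (adjusted p = 0.0053). Of 3 probe sets tested, 2 rose in the last step, but only the chosen 1 rose from primary to large antral oocytes. Another fell in secondary relative to primary oocytes. In primary relative to primordial oocytes the rise of the chosen probe set was 0.52 ± 0.12, but a second tested probe set fell there by 1.68 on the log2 scale (SE 0.20).

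Ipo8, a receptor for Argonaute and Smad proteins, was at 2978.6, 2948.1, 2948.8 and 2522.5 in primary oocytes, against 991.5, 1166.0, 810.4 and 881.3 in primordial oocytes (log2 1.54 ± 0.13, adjusted p = 3.8e-10, and 1.59 unmixed). It reached 3907.1, 4286.1, 4250.0 and 3785.2 in large antral oocytes, above all small antral samples (0.56 ± 0.12, adjusted p = 0.0056). Of the 3 Ipo8 probe sets tested, only this 1 rose in these 2 comparisons, and 0 fell. Tnpo1, the receptor of hnRNP A1 and related RNA-binding proteins, rose 2.78-fold in primary oocytes (log2 1.47 ± 0.16, adjusted p = 1.6e-08, and 1.45 unmixed). Its later rise of 0.47 ± 0.16 in large antral relative to primary oocytes (adjusted p = 0.024) was lost without large antral replicate 2 (0.42), large antral replicate 3 (0.404) or primary replicate 3 (0.414). The last step of Tnpo1, 0.56 ± 0.16, was lost in the same way without any of 5 samples (0.496 to 0.533). Ipo9 samples lay between 576.2 and 610.0 in large antral oocytes and between 341.3 and 373.5 in primary oocytes (log2 0.69 ± 0.14, adjusted p = 0.00057).

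Among the falling receptors, Ipo11, which imports ubiquitin-conjugating enzymes, was at 318.3, 265.4, 320.0 and 326.1 in primary oocytes, against 782.6, 640.2, 630.6 and 555.0 in primordial oocytes (log2 -1.0 ± 0.25, adjusted p = 0.0012). Its mean was 91.7 ± 42.9 in large antral oocytes (SD, n = 4), a further -1.52 ± 0.27 (adjusted p = 0.00011). Ipo7, an importer of ribosomal proteins and histone H1, fell in primary relative to primordial oocytes, from deposited and from unmixed values. During later growth Ipo7 fell mainly in the step to small antral follicles. In each of these comparisons 1 of its 3 tested probe sets fell and 0 rose. Small antral samples were at 182.6, 218.0, 187.0 and 273.3, against 348.8, 603.2, 462.3 and 354.2 in secondary oocytes (log2 -0.92 ± 0.18, adjusted p = 0.001). Tnpo3, the receptor of splicing SR proteins, fell in the same step, with 100.4 to 184.1 in small antral against 201.6 to 304.6 in secondary oocytes (-0.76 ± 0.17, adjusted p = 0.0035). Ipo5, an importer of ribosomal proteins, fell by 0.96 in primary oocytes (SE 0.13, adjusted p = 7.2e-07). Its later fall of 0.37 from primary to large antral oocytes was small, and was lost without any of 5 samples (log2 -0.365 to -0.333). The early falls of Tnpo3 and Ipo4 were not called from unmixed values, at -0.33 ± 0.28 and 0.06 ± 0.31. Ipo13 was not called in any comparison. Tnpo2 rose in primary oocytes alone (log2 0.90 ± 0.20), where its other 2 tested probe sets fell.

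Of the 4 exportins among the members, Xpo1 (CRM1), the main exporter of proteins with leucine-rich signals, fell through growth. Signals were 4400.6, 4934.7, 5037.2 and 4773.8 in primary oocytes. In secondary oocytes they were 2928.1, 3579.1, 3076.6 and 2855.6, in small antral oocytes 2056.4, 2148.3, 2444.1 and 1909.7, and in large antral oocytes 1384.5, 1795.1, 1992.4 and 1738.8. Among these 4 stages only the antral ones overlapped. The fall from primary to large antral oocytes was 2.76-fold (log2 -1.46 ± 0.11, adjusted p = 1.3e-09), with -0.62 ± 0.11 in the step to secondary and -0.53 ± 0.11 in the step to small antral follicles. A second Xpo1 probe set fell less over the same span (-0.41 ± 0.09, adjusted p = 0.0012). Before that, the 2 probe sets had opposite calls in primary relative to primordial oocytes (0.39 ± 0.12 and -0.39 ± 0.10), and the first was not called unmixed (0.12 ± 0.17).

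Xpo4, an exporter of the translation factor eIF5A, was the exportin that rose, with 249.1, 246.2, 292.9 and 308.8 in large antral oocytes against 182.5, 117.0, 163.0 and 163.1 in primary oocytes (log2 0.71 ± 0.14, adjusted p = 0.00028). It was also the single member to rise in the step from secondary to small antral follicles (0.49 ± 0.14, adjusted p = 0.016), counting 1 probe set a gene. The call was lost with all 20 arrays and unmixed primordial values in 1 fit (0.491, adjusted p = 0.06). Other probe sets of Ipo9 (0.47 ± 0.11) and Nup50 (0.65 ± 0.14) also rose in that step. Xpo7 fell by 0.38 from primary to large antral oocytes (SE 0.10, adjusted p = 0.0032). Its deposited primordial values were uneven, with replicate 1 at 6966.4 and the other 3 between 13337.6 and 15289.9, and a further Xpo7 probe set was among the 100 of 430A for which no unmixed values were formed. Xpo6, the exporter of actin with profilin, was not called during growth.

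Among the nucleoporins with FG repeats and those of the pore's filaments and basket, of 8 tested, 4 rose and 1 fell in primary relative to primordial oocytes, beside 25.9% and 23.7% of all genes. In large antral relative to primary oocytes 3 rose and 0 fell by limma's adjusted p, beside 17.8% and 17.9%. Other probe sets of the same group did fall there: 3 of 5 for Nup54, 1 of 2 for Nup214 and 1 of 4 for Ranbp2. The scaffold nucleoporins numbered 6 rises and 2 falls of 10 in the first comparison and 3 rises and 4 falls in the second, beside the same shares. The difference between the groups was not tested.

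Nup62, the FG protein of the central channel, dipped in primary oocytes. Signals were 3163.3, 3090.2, 3032.6 and 2866.2 in primordial, 2248.4, 2107.2, 1958.9 and 2325.7 in primary, and 3015.8, 3054.6, 2866.8 and 2763.4 in secondary oocytes. Primary samples were below all others (log2 -0.49 ± 0.09 relative to primordial, adjusted p = 0.0001). Secondary oocytes were 0.43 ± 0.09 above primary (adjusted p = 0.0025), and large antral oocytes, at 3344.8 to 4102.3, were 0.78 ± 0.09 above primary (adjusted p = 1.1e-06). All 5 tested Nup62 probe sets rose over that last span, by between 0.44 and 1.23 on the log2 scale. In the first transition they were split, with 3 falls, 1 rise and 1 not called.

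Nup214, on the cytoplasmic face of the pore, was at 21149.6, 22758.6, 22160.5 and 19849.7 in primary oocytes, against 6202.9, 8104.2, 6380.4 and 6676.3 in primordial oocytes (log2 1.65 ± 0.14, adjusted p = 1.1e-09, and 1.53 unmixed). It was not called in later steps. Its small antral samples on 430B were uneven, at 17527.7, 27423.0, 28554.2 and 17338.5. The log2 change was 0.22 from secondary to small antral and 0.23 from small antral to large antral oocytes, and without the 3 arrays in doubt it was -0.118 and 0.566 (adjusted p = 0.059), none of them called. Nup50, a basket protein that helps release importin alpha cargo, rose 2.8-fold in primary oocytes (1.48 ± 0.15, adjusted p = 1.1e-08, and 1.89 unmixed). Its signals reached 1709.4 to 1989.1 in large antral against 1097.4 to 1258.4 in primary oocytes (0.63 ± 0.14, adjusted p = 0.0012). Another Nup50 probe set fell in the first transition (-0.52 ± 0.15, adjusted p = 0.0038).

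Nup98, a mobile FG nucleoporin, was at 1142.4, 1190.0, 1106.2 and 1112.3 in primary oocytes, against 506.2, 585.6, 495.9 and 651.9 in primordial oocytes (log2 0.99 ± 0.11, adjusted p = 2.1e-08). Its second probe set, on 430B, rose by a like amount (0.90 ± 0.15). From primary to large antral oocytes the 430A probe set did not change beyond its error (0.04 ± 0.10), while that on 430B rose (0.77 ± 0.16, adjusted p = 0.0012). Between these stages the 430A probe set fell in small antral relative to secondary oocytes. That call was lost with all 20 arrays and unmixed primordial values in 1 fit (-0.452, adjusted p = 0.053). Its last step was not called, but was with the filter at 400 and with the replicate block (0.296 in each). Nup153, a basket protein, was not called on 430A at any step, with means between 1823.1 ± 155.6 in secondary and 2413.9 ± 229.8 in primary oocytes (SD, n = 4 each). A 430B probe set for Nup153 rose in primary oocytes (0.93 ± 0.18, adjusted p = 0.00031). Nup88, a partner of Nup214, rose by 0.52 ± 0.10 from primary to large antral oocytes, Nup54 was called in the first transition from deposited values alone, and Ranbp2, the large filament protein that binds SUMO-modified Rangap1, was not called from its chosen probe set. Another Ranbp2 probe set fell in secondary relative to primary (-0.90 ± 0.17), small antral relative to secondary (-0.64 ± 0.17) and large antral relative to primary oocytes (-1.40 ± 0.17, adjusted p = 1.3e-06), and 2 on 430B fell in primary relative to primordial oocytes.

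In the scaffold, the Y-complex and the inner ring each held members that moved apart. Within the Y-complex, Nup107 was at 4505.1, 4478.2, 4236.5 and 4114.4 in primary oocytes, against 2273.6, 2039.9, 2081.5 and 2223.3 in primordial oocytes (log2 1.0 ± 0.08, adjusted p = 8.7e-11, and 1.04 unmixed). Large antral samples were slightly lower than primary, at 3485.3 to 3753.7 (-0.25 ± 0.07, adjusted p = 0.0055). Nup85 rose in primary oocytes as well (0.94 ± 0.09, adjusted p = 5.6e-09), and was higher in large antral than in primary oocytes (0.40 ± 0.09, adjusted p = 0.0011). Its step from primary to secondary follicles, 0.30 ± 0.09, lost its call without any of 4 samples (0.249 to 0.286). Nup133 fell instead, with 1929.8, 2527.7, 2089.2 and 2184.5 in primary against 4827.3, 5419.7, 5410.4 and 5729.7 in primordial oocytes (-1.28 ± 0.12, adjusted p = 3.5e-09, and -1.44 unmixed). Nup133 fell again in small antral relative to secondary oocytes (-0.77 ± 0.13, adjusted p = 0.00023), where samples lay between 1063.9 and 1338.9. Of 5 Nup133 probe sets tested, 3 fell and 0 rose in primary oocytes as deposited, but 1 fell and 1 rose unmixed. In small antral relative to secondary oocytes 2 of the 5 fell and 0 rose. Nup37 fell by 0.45 and Nup43 and Nup160 rose by 0.38 and 0.27 in primary oocytes. From primary to large antral oocytes, Nup160 rose by 0.38 and Nup43 fell by 0.39.

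In the inner ring, Nup188 stood at 399.9, 390.3, 467.9 and 384.7 in small antral oocytes, against 839.8, 932.5, 972.9 and 742.1 in secondary oocytes, with no overlap (log2 -1.03 ± 0.20, adjusted p = 0.0012). Large antral samples of Nup188 spread from 260.7 to 664.7. Its relative Nup205 went the other way, rising by 0.57 ± 0.12 from primary to large antral oocytes (adjusted p = 0.0019). Nup93, which anchors both, rose in primary oocytes (0.62 ± 0.09, adjusted p = 4.1e-06) and ended growth at its primary level, with means of 3038.6 ± 97.4 in large antral and 3041.0 ± 190.3 in primary oocytes (SD, n = 4 each). Its last-step rise of 0.25 lost its call without any of 6 samples (0.214 to 0.268). Nup155 was called from deposited values alone in the first transition, and not later.

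Nup210, the membrane-anchored nucleoporin, fell in 2 successive steps. Signals were 416.5, 295.5, 297.9 and 330.1 in primary, 235.3, 251.5, 207.5 and 196.4 in secondary, 92.9, 143.9, 127.9 and 112.0 in small antral, and 137.4, 167.5, 117.2 and 125.6 in large antral oocytes. From primary to large antral oocytes the log2 change was -1.12 ± 0.16 (adjusted p = 8.4e-06). The step to secondary follicles, -0.52, was lost without secondary replicate 3, secondary replicate 4 or primary replicate 1 (-0.493, -0.47 and -0.42). The step to small antral follicles was -0.76 ± 0.16 (adjusted p = 0.0018). Of the 2 Nup210 probe sets tested, only this 1 fell in these comparisons, and 0 rose.

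**Figure D5:**
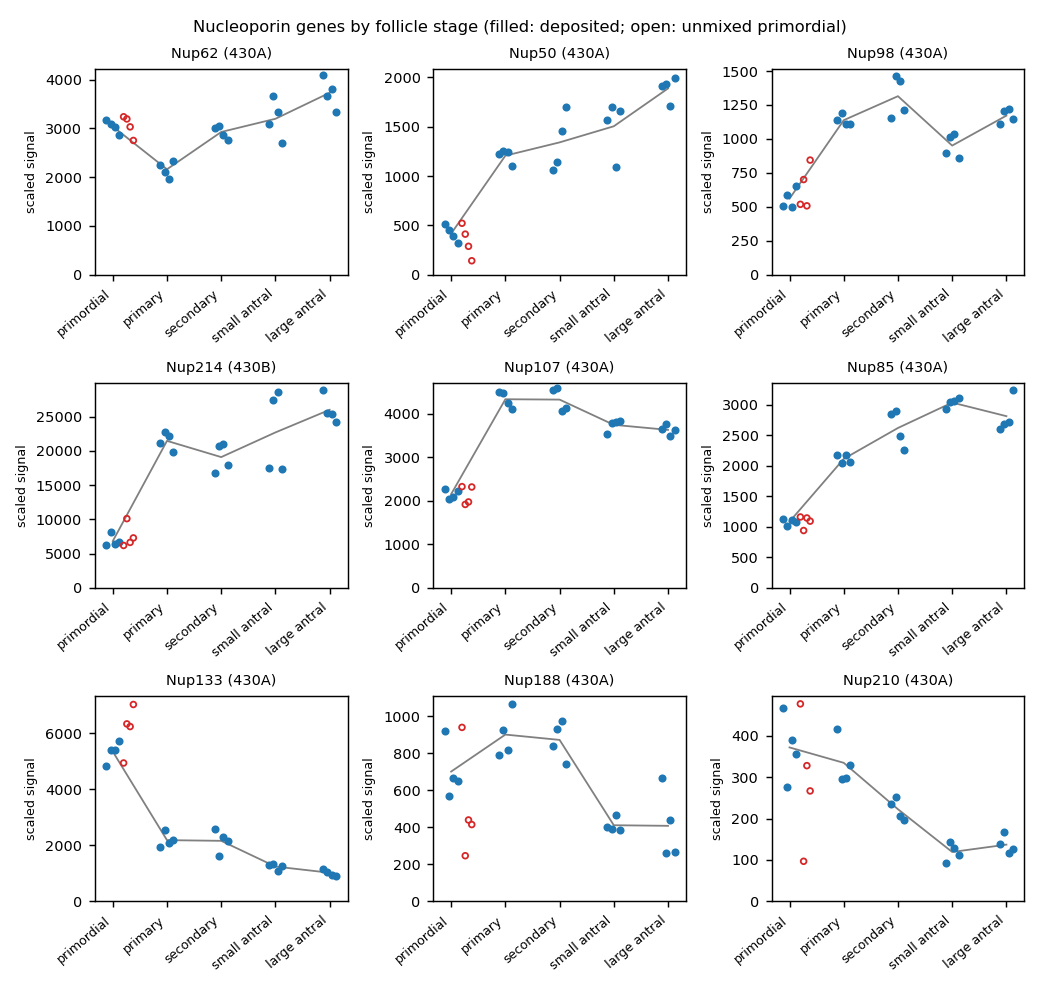
Scaled signal of 9 nucleoporin genes in each sample by follicle stage, with lines through the stage means of the deposited values; open points are unmixed primordial values. Nup214, Nup107 and Nup85 are lowest in primordial oocytes, Nup133 is highest there, and Nup188 and Nup210 are lower in antral than in primary oocytes.

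The remaining 4 members have Ran-binding names and other or less settled roles. Ranbp9 and Ranbp10, subunits of a ubiquitin ligase complex, had opposite calls in primary oocytes (0.82 ± 0.14 and -0.80 ± 0.15). Ranbp9 rose by a further 0.45 ± 0.15 from primary to large antral oocytes, and Ranbp17, a relative of Xpo7, fell by 0.93 (SE 0.26, adjusted p = 0.0065), with 16.9 to 103.0 in large antral against 136.5 to 180.2 in primary oocytes. Ranbp6 was not called in any comparison.

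Genes with several probe sets did not always agree. Over the 123 member probe sets tested, opposite calls within a gene arose for 8 genes in primary relative to primordial oocytes: Kpnb1, Nup50, Nup62, Ran, Ranbp3, Tnpo2, Xpo1 and Xpo7. From unmixed values, over 121 probe sets, there were 7: Kpnb1, Nup133, Nup50, Nup54, Nup62, Ran and Tnpo2. Kpna4 was the one such gene in secondary relative to primary and in large antral relative to primary oocytes, and there were 0 in the other 2 steps. Probe sets of 1 gene can read different transcript ends or splice forms, and their positions were not examined here.

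Related genes outside the members were read from fixed lists, in large antral relative to primary oocytes. Of 14 genes of the nuclear lamina and envelope 1 rose and 6 fell, among them Lemd2, an inner membrane protein (log2 -2.15 ± 0.20), and Lmnb2, which encodes lamin B2 (-1.15 ± 0.16). Of 4 further transport factors 1 rose and 3 fell, including the tRNA exporter Xpot (-1.30 ± 0.16) and Cse1l, which returns importin alpha to the cytoplasm (-0.63 ± 0.11). The riser was Snupn, the adaptor for spliceosomal RNPs (0.64 ± 0.11). Of 11 other pore components 3 rose, Ndc1 (0.75 ± 0.13) and Mcm3ap (0.89 ± 0.16) among them, and 3 fell, including the Y-complex gene Seh1l (-0.91 ± 0.13). Of 19 mRNA export genes 4 rose and 1 fell, which was Alyref (-1.22 ± 0.13). Of 8 SUMO pathway genes 2 rose and 1 fell, and of 8 spindle factors regulated by Ran 1 rose, Aurka (1.15 ± 0.10), and 2 fell. The shares among all genes were the 17.8% and 17.9% given above.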

How the data were processed

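Oocyte RNA was amplified, labelled with biotin and hybridised to Affymetrix 430A and 430B arrays, per the labels' protocols. The deposited values are array intensities, 1 signal per probe set on a linear scale, made by the authors with MAS5 per the submitters' processing notes; its version and scaling are not given in the sources used here. The number of arrays, 4 per stage and type, limits the precision: log2 changes between growing stages had a median standard error of 0.17 on 430A and 0.35 on 430B. Groups and replicate numbers were taken from sample titles.

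Signals were divided by each array's 2% trimmed mean and multiplied by 500; log2 was then taken after an offset of 32. Probe sets at 100 or more on at least 4 of 20 arrays were tested, each array type apart, with limma 3.58.1 in R 4.3.3 (mean-variance trend, two-sided), and p-values were adjusted over all probe sets of a type by Benjamini-Hochberg, with a threshold of 0.05. Growing stages were fitted on 16 arrays, and primary against primordial on 20. Unmixing left out 100 probe sets of 430A. Each gene was read from 1 probe set, preferring 430A and then the highest mean log2 signal. All counts over all genes use the same rule. Probe sets were named through the platform annotation, where 20380 of 22626 on 430A and 14565 of 22411 on 430B had 1 symbol.

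The genes named with full values are 13 fixed ones and, per comparison, the 5 largest rises and falls; other members are given by counts, ranges or up to 4 examples per role, and listed genes by smallest adjusted p. Members and lists were chosen with earlier results of these data known. The procedure was tested on simulated data. Alternatives covered scaling, offset, filter, probe set choice, fit, replicate block and each sample left out.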

Additional observations from a re-analysis of the deposited data

Results flagged for a closer look

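Among 145 groups of 4 samples of the members named with full values, 16 held a sample far from the other 3 (Dixon's ratio above its 95% value for 4 samples, which chance exceeds in about 1 of 20 groups). Most of these gaps were small beside the signal.

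Ipo11 stood low in primary replicate 2, at 265.4 against 318.3 to 326.1, and in small antral replicate 4, at 49.2 against 156.0 to 164.7. Ipo5 stood low in secondary replicate 1, at 751.5 against 1036.4 to 1086.6. In the same sample Ipo9 was at 317.3 against 394.2 to 408.7 and Kpna3 at 1813.3 against 2126.8 to 2182.0. Ipo8 stood low in primary replicate 4, at 2522.5 against 2948.1 to 2978.6. Tnpo1 stood high in small antral replicate 3, at 1260.2 against 918.5 to 941.4.

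Kpna2 stood high in primary replicate 2, at 10989.0 against 9267.0 to 9545.8, and in large antral replicate 1, at 11368.1 against 10598.1 to 10688.0. Large antral replicate 1 was also low for Kpna3, at 2633.6 against 2885.9 to 2898.5, and high for Ranbp1, at 1304.9 against 1166.9 to 1175.8. Kpna7, on 430B, stood high in primordial replicate 2, at 1848.1 against 1583.2 to 1593.7, and low in large antral replicate 2, at 11362.8 against 13049.9 to 13292.3. Nup107 stood low in small antral replicate 1, at 3538.2 against 3787.6 to 3836.3. Ran stood low in primordial replicate 1, at 14911.7 against 17244.1 to 17608.6, and in secondary replicate 3, at 6124.2 against 6769.5 to 6881.7. In the primordial group the other 3 deposited values have the form of means with replicate 1.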

How the results depend on the processing

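Counts of members called were 34, 9, 13, 7 and 30 in the 4 successive steps and in large antral relative to primary oocytes. With all 20 arrays and unmixed primordial values in 1 fit, the counts of the 3 growth steps were 4, 5 and 2; taking probe sets from 430B first gave 8 in small antral relative to secondary oocytes and 20 in large antral relative to primary oocytes, and limma without the trend gave 4 in the last step. Leaving out each sample in turn gave 32 to 38, 6 to 12, 10 to 14, 4 to 11 and 27 to 30 calls. The cause of these shifts was not tested. The other settings kept each count within 1.5 times the main one. Over 145 results of the genes given with full values, 1547 values under other settings kept their side of the threshold and, where called, their direction, 40 lost a call, 21 gained one, and 1 called value turned direction, Kpna2 in primary relative to primordial oocytes at 0.017 after quantile normalization. Values that were not called could change sign among these, as for Nup214. Outside these results, the called early fall of Ipo4 was 0.06 unmixed and not called. With a sample left out, 1093 kept both, 47 lost a call and 20 gained one. Ipo5 in secondary relative to primary oocytes (-0.45) lost its call without secondary replicate 1 (-0.329) or primary replicate 1 or 3. The call of Nup107 in small antral relative to secondary oocytes (adjusted p = 0.0455) was lost in 12 settings, 6 of them with a sample left out. With the replicate block the counts were 34, 11, 12, 10 and 30. Same-numbered samples of different growing stages did not deviate together (mean correlation 0.011 on 430A), so the numbers name samples and do not pair them.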
